A study of Mus musculus with 9 samples.

Results

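The transcripts of 10 neuropeptide and dense-core vesicle genes, *Cartpt*, *Tac1*, *Npy*, *Cck*, *Penk*, *Vip*, *Gal*, *Sst*, *Adcyap1* and *Scg2*, were followed in purified mouse retinal ganglion cells (RGCs) after intraocular pressure (IOP) elevation. These 10 genes were taken by symbol from the 23997 gene symbols in the expression files. They were selected on FPKM of these same libraries, in which the *Cartpt* differences were already known, so their levels and differences are given as a description, without p-values. RGCs are the output neurons of the retina, and IOP elevation is the main risk factor for their loss in glaucoma. C57BL/6J mice received saline (Control) or microbeads in the anterior chamber, and IOP was followed for 2 weeks. The labels give 8 weeks of age, which by the study's methods is the age after these 2 weeks, not at injection. Eyes with microbeads were sorted afterwards by their pressure into a Mild IOP and a Moderate IOP group, so the study compared 2 levels of elevation with saline and with each other. RGCs were enriched by negative panning against microglia, endothelial cells, fibroblasts and amacrine cells followed by Thy1.2 selection. The RNA of each group was pooled across animals and divided into 3 libraries, so the spread between replicates covers technical variation, not variation between animals. The labels name no transgene or mutant allele, and the 3 groups differ by the injected material and by the IOP class assigned afterwards.

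Neuropeptides are made as larger precursor proteins, cut and amidated by enzymes inside the secretory pathway, stored in large dense-core vesicles and released to act on G protein-coupled receptors. Granins such as the *Scg2* product help to form these vesicles. In the retina most peptides are known from amacrine cells, whereas the CART peptide marks on-off direction-selective RGCs in the mouse and PACAP, the *Adcyap1* product, is found in intrinsically photosensitive RGCs.

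The 120 bases before the start of 5 of the genes are shown because several neuropeptide promoters hold a cAMP response element (CRE, TGACGTCA), a known element of activity-dependent transcription. They were read from RefSeq for GRCm38.p6, which is mm10, in the direction of transcription, with the full CRE or its half-site (TGACG, or CGTCA on the other strand) in capitals. The windows are chr13:99900684-99900803 (minus strand) for *Cartpt*, chr16:23890845-23890964 (minus) for *Sst*, chr1:79440027-79440146 (minus) for *Scg2*, chr6:7554941-7555060 (plus) for *Tac1* and chr6:49822590-49822709 (plus) for *Npy*.
Cartpt: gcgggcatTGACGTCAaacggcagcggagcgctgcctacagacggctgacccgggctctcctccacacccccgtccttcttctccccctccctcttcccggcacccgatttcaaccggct
Sst: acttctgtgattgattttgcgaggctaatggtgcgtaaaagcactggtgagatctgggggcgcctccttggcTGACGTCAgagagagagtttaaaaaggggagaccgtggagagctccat
Scg2: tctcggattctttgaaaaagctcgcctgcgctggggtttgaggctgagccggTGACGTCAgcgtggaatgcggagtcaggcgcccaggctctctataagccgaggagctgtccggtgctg
Tac1: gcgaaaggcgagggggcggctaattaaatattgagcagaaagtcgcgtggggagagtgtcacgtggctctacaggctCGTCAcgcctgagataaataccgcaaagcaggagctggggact
Npy: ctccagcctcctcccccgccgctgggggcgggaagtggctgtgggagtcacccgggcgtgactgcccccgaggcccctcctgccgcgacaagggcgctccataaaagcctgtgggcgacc
The starts are those of RefSeq, and that of *Scg2* lies inside the gene's interval as the expression files give it. In the 250 bases before the RefSeq start, the full CRE was found 112 bases upstream in *Cartpt*, 48 bases upstream in *Sst* and 68 bases upstream in *Scg2*. The same 8 letters were present in 1.55% of the 32851 mouse promoters of this length. The half-site, which the full CRE contains, was found in 7 of the 9 genes with a RefSeq promoter, namely those 3, *Tac1*, *Adcyap1*, *Vip* and *Cck*, and in 17.77% of all promoters. *Gal* and *Npy* held neither, *Penk* had no entry, and *Adcyap1* was searched at both of its starts. None of the 9 held the AP-1 letters TGANTCA, which 6.75% of promoters hold. The part of these sites in the levels of the genes was not tested.

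Expression was measured by RNA sequencing as fragments per kilobase of transcript normalised to library size (FPKM), and all levels here are FPKM after scaling between libraries. The files give no read totals. Depths derived from the confidence interval of each FPKM lay between 4440000 and 7920000 fragments per library, and 14182 to 14914 symbols were above 0. A single gene held 20.5% of all FPKM in Mild IOP replicate 2 and 9.14% in Moderate IOP replicate 3, against at most 3.59% in the other libraries. In Mild IOP replicate 2 the levels of *Cartpt*, *Npy*, *Cck*, *Penk*, *Scg2* and *Sst* were the lowest of all libraries, and values without this library are given where they differ most. RGC markers were detected in every library, with a summed level of 1595–1715 in Control, 1197–1479 in Mild and 2523–2720 in Moderate IOP. Amacrine markers, led by *Gad1*, were present in every library as well, at 962.5–1345. In such bulk samples, fewer cells of a type and less RNA per cell cannot be told apart.

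*Cartpt*, the precursor of CART peptides, lies at chr13:99898483-99900683 (mm10) and was the most abundant member in Control. Its level was 401, 410 and 414 in the Control libraries (408 ± 6.74, SD, n = 3). The level was 337, 234 and 358 in Mild IOP (310 ± 66.6) and 920, 887 and 846 in Moderate IOP (884.5 ± 37.2). All Mild IOP libraries thus lay below, and all Moderate IOP libraries far above, every Control library. The Moderate IOP mean was 2.17 times the Control mean, a difference of 1.11 on the log2 scale (SE 0.15). The Mild IOP mean was 24.2% below Control in the opposite direction, a log2 difference of -0.42 (SE 0.15), and Moderate IOP exceeded Mild IOP by 1.535 (SE 0.15). Without Mild IOP replicate 2 the Mild IOP difference from Control was -0.24, and that between Moderate and Mild IOP 1.35.

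**Figure D1:**
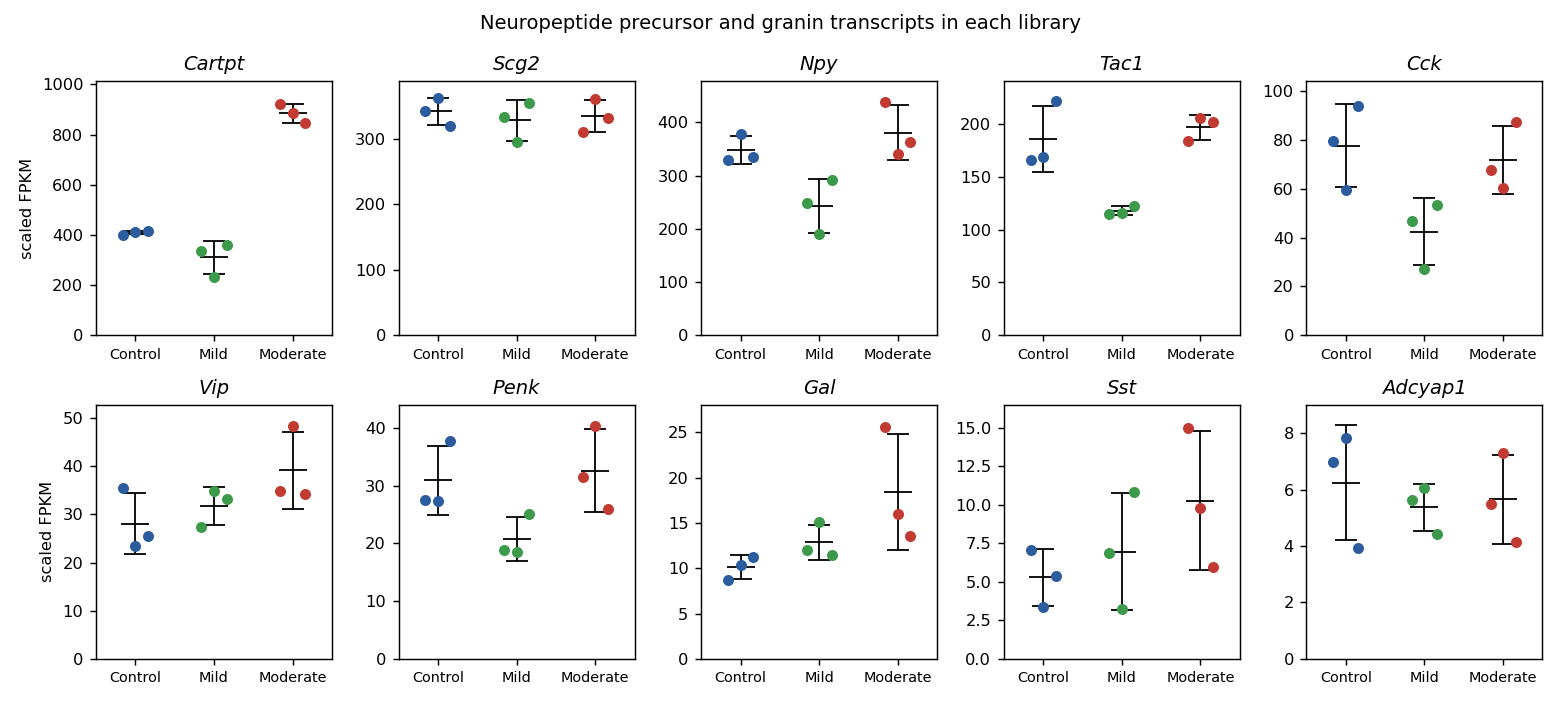
Scaled FPKM of the 10 genes (vertical axis, from 0, a separate scale for each gene) in the 3 libraries of Control (blue), Mild IOP (green) and Moderate IOP (red), with the mean and SD in black. The *Cartpt* points of Moderate IOP, 846 to 920, stand clear of the other 6 libraries, whereas the *Scg2* points of the 3 groups overlap.

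The position of *Cartpt* among all genes moved with its level. It ranked number 205 by mean FPKM in Control, number 228 in Mild IOP and number 75 in Moderate IOP. Within the summed FPKM of the 10 genes its share was 28.3% ± 0.18 in Control, 27.5% ± 2.31 in Mild and 44.8% ± 0.54 in Moderate IOP (SD, n = 3). The ratio of *Cartpt* to *Scg2* inside each library does not depend on the scaling between libraries. This ratio was 1.13–1.30 in Control, 0.79–1.01 in Mild and 2.46–2.96 in Moderate IOP, so the 3 groups did not overlap. With *Npy* in place of *Scg2* it was 1.082–1.235 in Control, 1.227–1.358 in Mild and 2.099–2.606 in Moderate IOP. Control and Mild IOP thus overlapped by that ratio. Relative to *Tac1* the ratio was 1.87–2.43 in Control, 2.01–2.93 in Mild and 4.19–5.01 in Moderate IOP. Set against the summed RGC markers of the same library, *Cartpt* amounted to 23.9–25.15% in Control, 19.5–24.2% in Mild and 33.5–35.2% in Moderate IOP.

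*Tac1*, the precursor of substance P and neurokinin A, lies at chr6:7555071-7562973. Its level was 166, 168.5 and 222 in Control (185.5 ± 31.4, SD, n = 3), 115, 116 and 123 in Mild IOP (118 ± 4.18), and 184, 205.5 and 202 in Moderate IOP (197 ± 11.7). Every Mild IOP library was below every other library, while Control and Moderate IOP overlapped. The log2 difference was -0.64 (SE 0.13) for Mild IOP against Control, 0.10 for Moderate IOP against Control and 0.73 for Moderate IOP against Mild IOP. Over the 17 alternatives tried, the last of these lay between 0.43 and 0.79.

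*Npy*, the precursor of neuropeptide Y (chr6:49822729-49829505), had levels of 330.0, 379 and 335 in Control (348 ± 26.8, SD, n = 3), 248, 190.4 and 292 in Mild IOP (243 ± 50.9) and 438.5, 340.5 and 363 in Moderate IOP (381 ± 51.3). Again the Mild IOP libraries were the lowest and the other groups overlapped. The log2 differences were -0.53 (SE 0.16) for Mild IOP against Control, 0.12 for Moderate IOP against Control and 0.66 between Moderate and Mild IOP. This last value became 0.49 without Mild IOP replicate 2 and 0.55 without Moderate IOP replicate 1.

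*Cck*, which encodes cholecystokinin (chr9:121489824-121495694), was likewise lowest in Mild IOP, at a lower level. Its libraries gave 79.7, 59.7 and 93.9 in Control (77.8 ± 17.2, SD, n = 3), 46.7, 27.0 and 53.4 in Mild IOP (42.35 ± 13.7) and 68.0, 60.5 and 87.4 in Moderate IOP (72.0 ± 13.9). Mild IOP did not overlap with the other groups. The log2 difference was -0.89 (SE 0.25) for Mild IOP against Control, -0.10 for Moderate IOP against Control and 0.79 between Moderate and Mild IOP. Over the 17 alternatives the last lay between 0.49 and 0.98, and it was 0.50 without Mild IOP replicate 2.

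*Penk*, the precursor of the enkephalins (chr4:4133536-4138445), was also lowest in Mild IOP. The values were 27.6, 27.4 and 37.7 in Control (30.9 ± 5.90, SD, n = 3), 18.8, 18.5 and 25.1 in Mild IOP (20.8 ± 3.76) and 31.5, 40.4 and 25.96 in Moderate IOP (32.6 ± 7.27). The highest Mild IOP library was just below the lowest Moderate IOP library. The log2 differences were -0.55 (SE 0.20), 0.07 and 0.62 for Mild IOP against Control, Moderate IOP against Control and Moderate against Mild IOP.

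For none of the remaining precursors did all Mild IOP libraries lie below those of both other groups. *Gal*, *Sst* and *Adcyap1* were the least abundant members. *Gal*, the galanin precursor (chr19:3409917-3414457), read 8.66, 10.4 and 11.3 in Control (10.1 ± 1.32, SD, n = 3), 11.99, 15.1 and 11.5 in Mild IOP (12.9 ± 1.94) and 25.6, 16.03 and 13.5 in Moderate IOP (18.4 ± 6.37). Both IOP groups were above Control in every library and overlapped with each other, with log2 differences from Control of 0.32 and 0.76 (SE 0.23). Without Moderate IOP replicate 1 the latter was 0.51. These values rest on few fragments, 27 to 67 per library by the derived depth.

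*Vip*, which encodes vasoactive intestinal peptide (chr10:5639218-5647614), averaged 28.1 ± 6.41, 31.8 ± 3.90 and 39.2 ± 8.01 in Control, Mild IOP and Moderate IOP (SD, n = 3). *Sst*, the somatostatin precursor (chr16:23889581-23890844), averaged 5.29 ± 1.86, 6.97 ± 3.83 and 10.25 ± 4.52, from only 8 to 33 fragments per library. *Adcyap1* (chr17:93199422-93205489) averaged 6.25 ± 2.04, 5.37 ± 0.84 and 5.66 ± 1.58. For these 3 genes the libraries of all groups overlapped. The Moderate IOP differences from Control were 0.47 (SE 0.19), 0.80 (SE 0.41) and -0.11 (SE 0.27) in that order.

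*Scg2*, which encodes secretogranin II, the precursor of secretoneurin (chr1:79434669-79440090), was flat. It read 343, 362 and 320 in Control (341 ± 21.1, SD, n = 3), 333, 294.5 and 355 in Mild IOP (327.5 ± 30.6) and 310.5, 360.1 and 332 in Moderate IOP (334 ± 24.9). The 3 differences lay between -0.06 and 0.03 with an SE of 0.11. *Scg2* was the most deeply covered member, with at least 3691 fragments in each library.

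Ordered by level, *Cartpt* led in Control, followed by *Npy*, *Scg2*, *Tac1*, *Cck*, *Penk*, *Vip*, *Gal*, *Adcyap1* and *Sst*. In Control the neighbours *Npy* and *Scg2*, *Penk* and *Vip*, and *Adcyap1* and *Sst* overlapped between replicates, and all other neighbours were apart. In Mild IOP *Scg2* had the highest mean, and *Scg2*, *Cartpt* and *Npy* overlapped in succession, as did *Cck* with *Vip* and *Sst* with *Adcyap1*. In Moderate IOP *Cartpt* was again first and apart from *Npy*, which overlapped *Scg2*. The summed FPKM of the 10 genes was 1405–1469 in Control, 939–1266 in Mild and 1914–2033 in Moderate IOP.

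All 10 genes passed the filter on low values, and the differences were set against the 13043 genes tested with limma at an FDR of 0.1. For Mild IOP against Control, 0 of the 10 members passed, against 0.399% of all genes (0.00767% as higher and 0.391% as lower), with 1324 genes at an unadjusted p under 0.05. In this comparison 5 members lay wholly below Control and 1 wholly above, while 9.13% and 7.94% of all genes did so. For Moderate IOP against Control, *Cartpt* alone passed, against 1.84% of all genes (0.951% as higher and 0.889% as lower). Of the members, 2 (*Cartpt* and *Gal*) lay wholly above Control and 0 wholly below, against 9.95% and 9.48% of all genes. For Moderate against Mild IOP, 4 members passed as higher (*Cartpt*, *Tac1*, *Npy* and *Cck*), against 7.03% of all genes, and 0 as lower, against 3.12%. Over the 17 alternatives tried, *Cartpt* and *Tac1* passed there in all 17, *Npy* in 15 and *Cck* in only 6. In this comparison 5 members lay wholly above Mild IOP, against 14.5% of all genes, and 0 wholly below, against 13.0%. Because the members were chosen with these contrasts known, nothing is read from these counts. The median log2 difference of the 10 genes was -0.29, 0.11 and 0.58 in the 3 comparisons, beside 0.006, 0.004 and -0.016 over all genes tested. The comparisons share their groups, so their values are not independent.

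**Figure D2:**
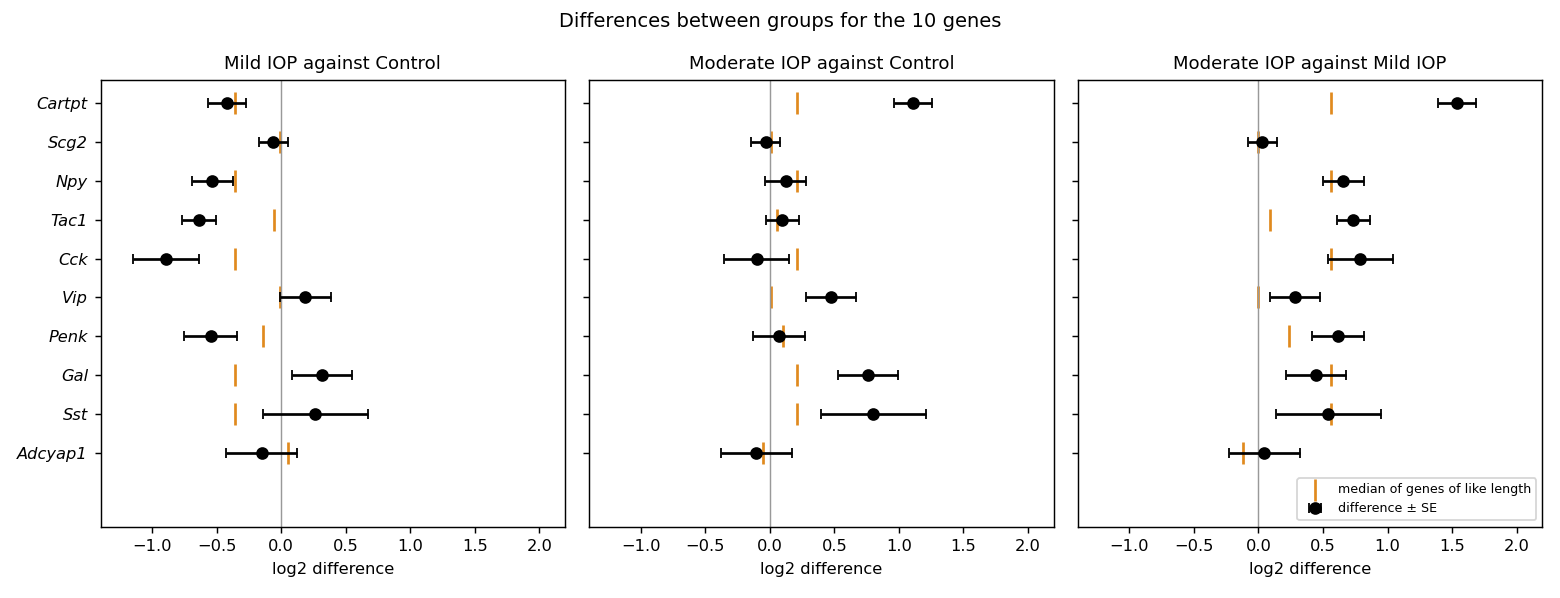
Log2 difference of scaled FPKM between groups (horizontal axis) for the 10 genes, with the SE as bars, and the median difference of genes of similar transcript length as orange ticks. *Cartpt* is far to the right of its tick in both comparisons with Moderate IOP, 1.11 and 1.535, and close to it for Mild IOP against Control.

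Transcript length moved with the differences between groups. Among the 12430 tested genes with a known length, the 10% with the shortest transcripts (98–1319 nt) had a median log2 difference of -0.36 for Mild IOP against Control, 0.21 for Moderate IOP against Control and 0.56 for Moderate against Mild IOP. In the 10% with the longest transcripts the medians were 0.11, 0.003 and -0.10. For Moderate against Mild IOP, 31.6% of the shortest class passed as higher, against 1.61% of the longest class and 7.03% of all genes. *Cartpt*, *Npy*, *Cck*, *Gal* and *Sst* have transcripts in the shortest class (566 to 1238 nt). Relative to the median of their length class, the *Npy* differences became -0.17, -0.085 and 0.10, and the *Cck* differences -0.53, -0.31 and 0.23. The *Gal* differences became 0.68, 0.55 and -0.11, and those of *Sst* 0.62, 0.59 and -0.019, so both turned below 0 between Moderate and Mild IOP. For *Cartpt* they became -0.06, 0.90 and 0.98, so most of its difference in Moderate IOP was beyond the median of its class. Its difference between Mild IOP and Control was close to that median. *Cartpt* (1238 nt) is near the upper end of the class, however. The next class (1320–1890 nt) had a median of only -0.14 for Mild IOP against Control. *Tac1*, with a transcript of 1975 nt, kept -0.585 and 0.65 in the comparisons with Mild IOP. The part of transcript length in the differences was not tested.

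**Figure D3:**
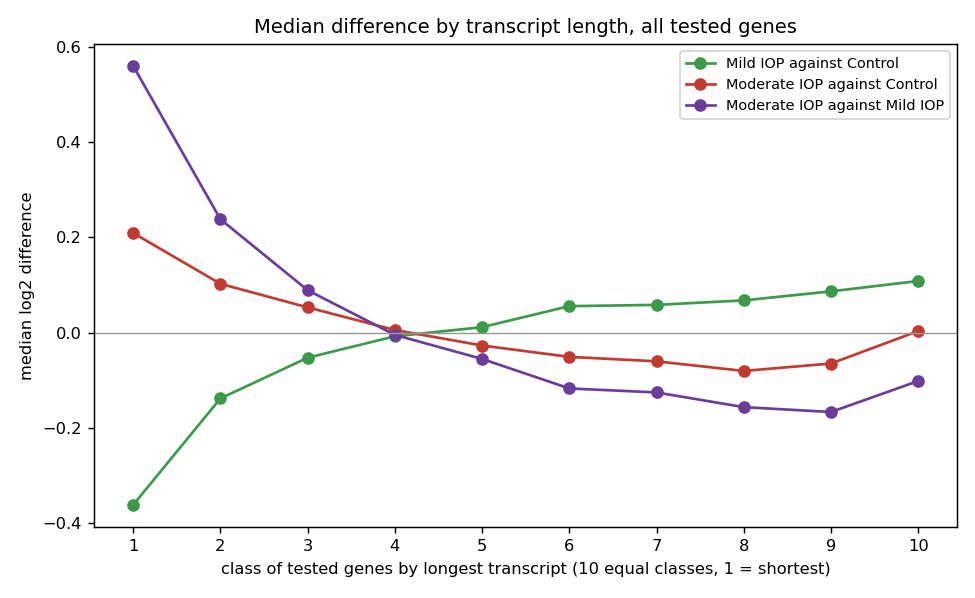
Median log2 difference (vertical axis) of the tested genes in each of 10 equal classes of transcript length (horizontal axis, 1 is the shortest) for the 3 comparisons. The shortest class spans -0.36 to 0.56, whereas the fourth class is near 0 in all comparisons.

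The genes whose pattern over the 9 libraries was most like that of *Cartpt*, by root-mean-square difference of centred log2 values, were *Actb* (0.19), *Hist1h2ac* (0.19) and *Ndufb3* (0.20). Those nearest to *Npy* were *Psma7* (0.076), *Mrpl46* (0.079) and *Cxx1c* (0.079). For *Tac1* they were *1500011K16Rik* (0.11), *2310014L17Rik* (0.12) and *Gsto1* (0.12), and for *Cck* *Omd* (0.17), *Lyrm2* (0.19) and *1110001J03Rik* (0.19). None of these 12 genes encodes a neuropeptide precursor on the lists used here.

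Among 30 other neuropeptide precursors, 15 could be tested and 8 (*Nts*, *Trh*, *Cort*, *Nmu*, *Nms*, *Npw*, *Pmch* and *Gnrh1*) were listed at 0 in every library. For Mild IOP against Control 0 passed, 1 was upregulated in Moderate IOP against Control and 3 in Moderate against Mild IOP. *Tac2*, the neurokinin B precursor, was the most abundant, at 138 ± 31.4, 123 ± 29.3 and 194 ± 11.2 in Control, Mild IOP and Moderate IOP (SD, n = 3). Its Moderate to Mild IOP difference was 0.68 (SE 0.20, limma FDR 0.076). That call was lost without any 1 of Control replicate 2, Mild IOP replicates 1 or 2, or a Moderate IOP replicate, at 0.47–0.76, and the difference was 0.12 relative to genes of similar length. *Calca*, which encodes calcitonin and CGRP, rose from 2.86, 0.723 and 2.35 in Mild IOP to 11.5, 10.9 and 14.3 in Moderate IOP, a difference of 2.23 (SE 0.59, limma FDR 0.053), or 1.67 relative to genes of similar length. Its Control libraries were spread widely, at 6.70, 0.552 and 9.67, and neither comparison with Control passed. Reads could be shared with its close paralog *Calcb*, and the call was lost without Mild IOP replicate 2 (1.87) or any Moderate IOP replicate (2.12–2.30).

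*Ucn*, the urocortin precursor, was listed at 0 in the 3 Mild IOP libraries and read 1.52, 7.13 and 8.13 in Moderate IOP (limma FDR 0.021), from 3, 27 and 20 fragments. In Control it read 2.31, 0 and 0.954. *Adm*, which encodes the vasoactive peptide adrenomedullin, rose from at most 0.0984 in Control to 2.86, 1.39 and 2.64 in Moderate IOP (limma FDR 0.060), from 15 to 19 fragments per library. Mild IOP read 0.345, 2.12 and 1.20, also above Control in every library, and neither comparison with Mild IOP passed. The *Adm* log2 difference was 1.52–1.69 without any 1 of the Control libraries or Moderate IOP replicates 1 or 3, and then no longer passed. *Pdyn*, the dynorphin precursor, averaged 16.9, 17.8 and 14.2, and *Grp*, the gastrin-releasing peptide gene, 9.20, 8.41 and 6.59 in the 3 groups, without passing in any comparison.

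Of 20 genes of precursor processing and dense-core vesicles, 19 were tested. In Mild IOP against Control 1 was downregulated, in Moderate IOP against Control 1 was upregulated, and in Moderate against Mild IOP 3 were upregulated, with medians of -0.01, 0.15 and 0.05. The highest of them, *Cpe*, which trims the cut peptides, was level at 630.4, 618 and 634. *Chga*, another granin, read 375, 371 and 419 and did not pass in any comparison. *Pcsk1n*, which encodes an inhibitor of the prohormone convertase PCSK1, rose in Moderate IOP. Its level was 88.05 ± 8.32 in Control, 82.1 ± 2.28 in Mild and 138 ± 5.41 in Moderate IOP (SD, n = 3), a log2 difference of 0.645 from Control (SE 0.11, limma FDR 0.030) and 0.74 from Mild IOP (limma FDR 0.0071). The difference from Control did not pass without Control replicate 1 (0.62) or 2 (0.60).

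*Resp18*, which encodes a secretory protein of neuroendocrine cells, fell from 322 ± 49.5 in Control to 182 ± 26.9 in Mild IOP (SD, n = 3), a log2 difference of -0.82 (SE 0.15, limma FDR 0.066), and was 398 ± 30.7 in Moderate IOP, 1.13 above Mild IOP (limma FDR 0.0046). Relative to genes of similar length, these differences were -0.46 and 0.57. Its call against Control was lost without any 1 Control library, Mild IOP replicate 1 or 2, or Moderate IOP replicate 2, at -0.90 to -0.69. *Scg5*, which encodes the PCSK2 chaperone secretogranin V, read 380.1 ± 27.3, 298 ± 50.3 and 420.1 ± 11.9. Moderate IOP exceeded Mild IOP by 0.51 (SE 0.13, limma FDR 0.044), but this call was lost without Mild IOP replicates 1 or 2 or Moderate IOP replicates 1 or 2 (0.40–0.51), and the difference became -0.051 relative to genes of similar length.

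**Figure D4:**
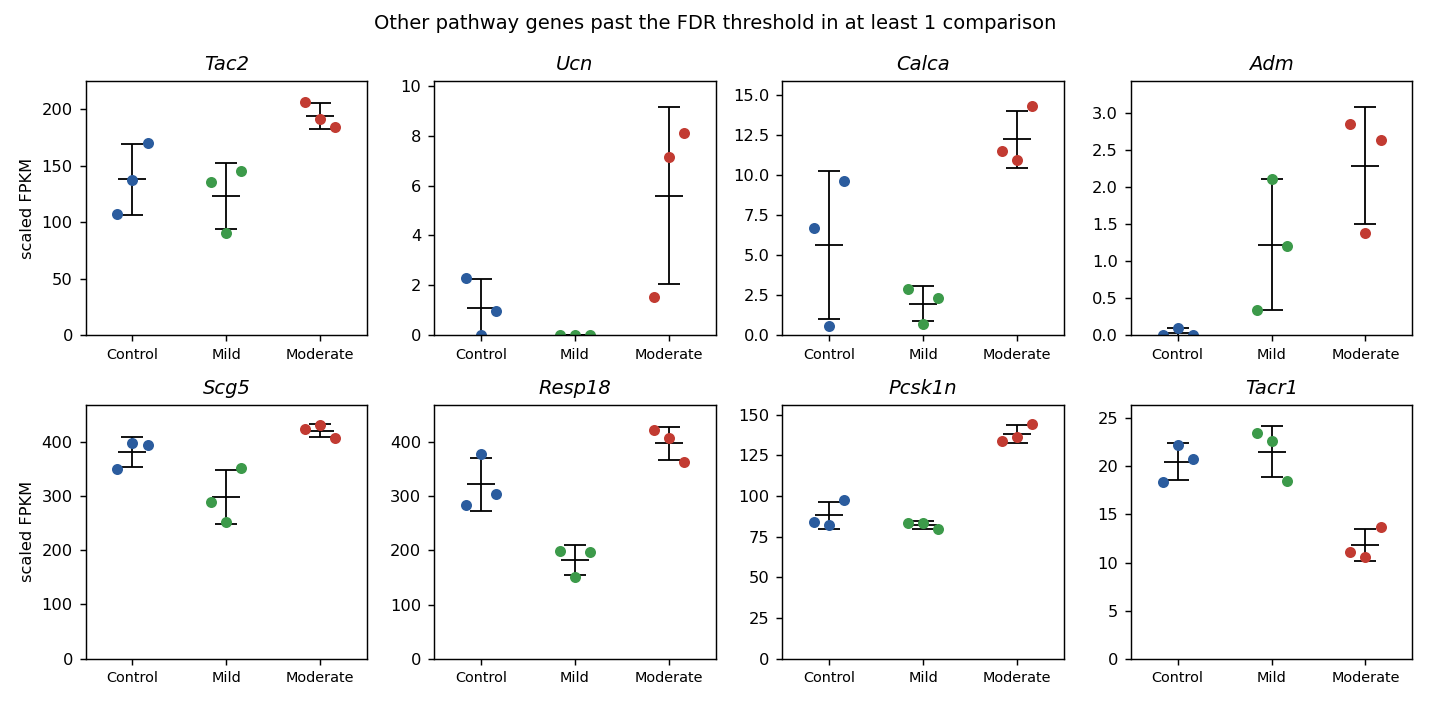
Scaled FPKM (vertical axis, from 0, a separate scale for each gene) of the 8 other pathway genes past an FDR of 0.1 in at least 1 comparison, in the 3 libraries of each group, with the mean and SD in black. *Pcsk1n* is above, and *Tacr1* below, all other libraries in Moderate IOP, and *Ucn* is at 0 in Mild IOP.

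Peptide receptors were sparse. Of 23 receptor genes, 8 were tested, and *Oprk1* and *Cckar* were listed at 0 in every library. In Mild IOP against Control 0 passed. *Tacr1*, the substance P receptor, fell from 20.5 ± 1.93 in Control and 21.5 ± 2.68 in Mild IOP to 11.8 ± 1.69 in Moderate IOP (SD, n = 3). The log2 differences were -0.75 from Control (SE 0.17, limma FDR 0.073) and -0.82 from Mild IOP (limma FDR 0.020). The first did not pass without any 1 of the Control libraries, Mild IOP replicate 1 or Moderate IOP replicates 1 or 2 (-0.82 to -0.68). *Oprl1*, the nociceptin receptor, averaged 21.5, 20.99 and 17.2. *Vipr2*, a receptor for VIP and PACAP, averaged 10.2 ± 1.30, 15.8 ± 3.00 and 17.2 ± 0.976. Its differences from Control of 0.57 and 0.70 did not pass (limma FDR 0.27 and 0.11). The study, using Cuffdiff with an FDR of 0.1, listed *Vipr2* as upregulated in both IOP groups.

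Over the 42 tested genes of these lists, 1, 3 and 7 passed in the 3 comparisons, with medians of -0.02, 0.10 and 0.09, beside 0.399%, 1.84% and 10.2% of all genes.

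Markers of other cells were measured beside *Cartpt*. The RGC list had 12 genes, of which 0, 3 and 7 passed as higher in the 3 comparisons, beside 0.00767%, 0.951% and 7.03% of all genes, and 0 as lower. *Sncg* and *Nefl*, its most abundant genes, were 0.61 (SE 0.135) and 0.65 (SE 0.09) higher in Moderate IOP than in Control (limma FDR 0.071 and 0.012). They averaged 911 and 342.5 in Control and weigh most in the RGC marker sum. In that comparison 10 of the 12 differences were above 0 and 2 below, *Pou4f2* (-0.10) and *Pou4f3* (-0.15). The list for direction-selective RGCs had 6 genes, 4 of them tested, and summed to 38.9–48.6 in Control, 38.2–48.0 in Mild and 34.8–49.6 in Moderate IOP, with 0 passing in any comparison. Its leading genes *Fstl4* and *Mmp17* averaged 14.7 and 13.7 in Control and 13.2 and 13.5 in Moderate IOP (limma FDR 0.81 and 0.96), whereas the mean of *Cartpt* was 2.17 times that of Control. Markers of intrinsically photosensitive RGCs (5 genes) summed to 41.8–44.2, 42.0–51.5 and 37.9–42.8, with 0 passing. Their part, and that of the RGC markers, in the *Cartpt* difference was not tested.

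The amacrine list (12 genes, 9 tested) summed to 1200–1305 in Control, 1249–1345 in Mild and 962.5–1022 in Moderate IOP, with 0, 2 and 3 genes passing as lower. The 3 were *Gad1*, *Gad2* and *Slc6a9* (-0.48, -0.83 and -1.88 in Moderate against Mild IOP), whereas 5 of the 9 tested genes had a difference above 0 in that comparison and the median was 0.12. Rod markers, led by *Sag* and *Gnat1*, summed to 527–620 in Control, 380.1–407 in Mild and 378–404 in Moderate IOP. In the 3 comparisons 2, 3 and 0 of 8 genes passed as lower, beside 0.391%, 0.889% and 3.12% of all genes. All 8 differences from Control were below 0 in both IOP groups. Lens genes summed to 317–386 in Control, 6.35–9.28 in Mild and 7.60–23.3 in Moderate IOP, so every comparison with Control includes this difference. Bipolar markers summed to 59.0–75.5 in Control, 53.1–67.2 in Mild and 88.0–99.2 in Moderate IOP. The most abundant of them, *Pcp2*, averaged 47.1, 32.7 and 65.9 in the 3 groups. It passed as higher in Moderate against Mild IOP (1.03), as 1 of 6 genes, beside 7.03% of all genes. In that comparison 3 of the 6 differences were above 0 and 3 below, with a median of -0.09. Microglia markers summed to 14.5–25.15, 16.8–31.1 and 27.1–35.2, with 0 of 6 passing. The list of Müller glia and astrocytes, led by *Dkk3*, summed to 590.5–618, 604–656 and 596–639.6. Of its 7 genes, *Rlbp1* (1.43) and *Apoe* (0.68) passed as higher in Moderate IOP against Control, beside 0.951% of all genes. Against Mild IOP, *Glul* (0.96) and *Apoe* (0.63) passed, beside 7.03%. In each of these 2 comparisons 5 differences were above 0 and 2 below, with medians of 0.60 and 0.19. *Dkk3* was among those below, at -0.20 and -0.27. Endothelial markers were near 0 at 1.11–3.18, with *Cldn5*, *Cdh5* and *Tie1* at 0. The part of these cells in the differences of the 10 genes was not tested.

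**Figure D5:**
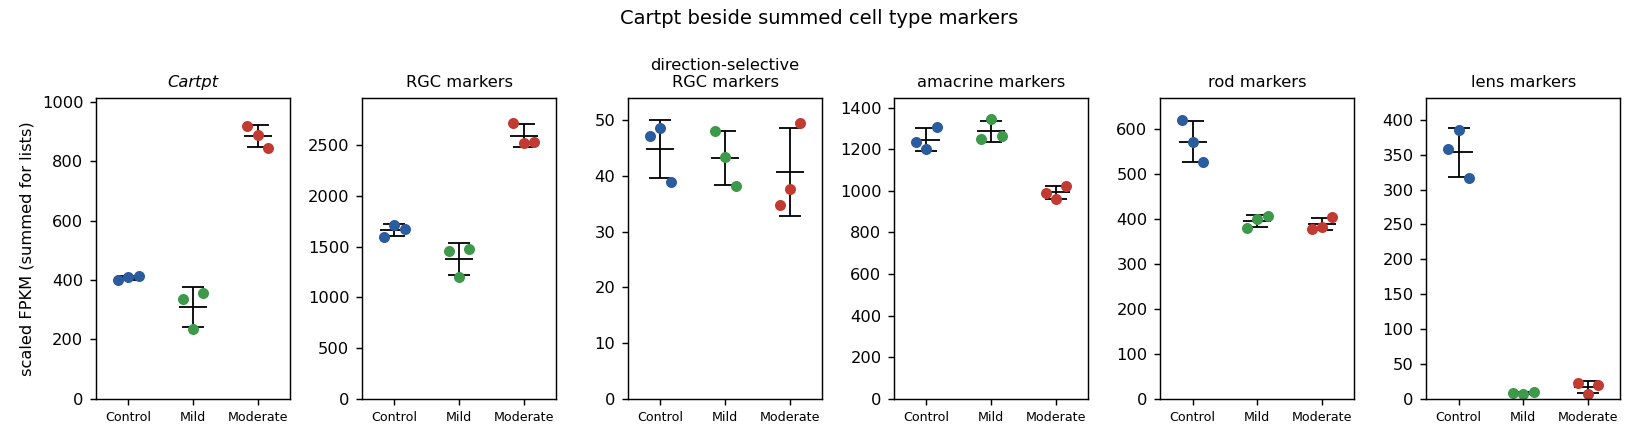
Scaled FPKM of *Cartpt* and summed scaled FPKM of 5 marker lists (vertical axes, from 0, separate scales) in the 3 libraries of each group, with the mean and SD in black. RGC markers are highest and amacrine markers lowest in Moderate IOP, direction-selective RGC markers overlap in all groups, and lens markers are high in Control only.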

How the data were processed

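RNA of immunopanned RGCs was sequenced in 9 libraries, 3 technical replicates of 1 pool for each of Control, Mild IOP and Moderate IOP. The amplified libraries (SMART-seq v4 with Nextera XT) do not mark strand, so a gene and its antisense partner cannot be told apart. The deposited values are FPKM per gene, estimated by the authors with Cufflinks on mm10, with a confidence interval. The submitters' processing notes name FastQC, Trimmomatic, TopHat2, Cufflinks and Cuffdiff, and the study's methods name bowtie2 as aligner. No raw counts were used.

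FPKM of rows with the same symbol were summed, and 2 symbols with a failed estimate were left out. Scaling between libraries used the median of ratios, with factors of 0.983–1.06. Values were tested as log2(scaled FPKM + 1), which understates changes of low genes, keeping genes whose scaled FPKM averaged 0.5 or more. Group means were fitted to all 9 libraries with limma 3.58.1 in R 4.3.3 (moderated variance with trend, Benjamini-Hochberg FDR below 0.1 over 13043 genes). Means, SDs and ratios of means are of scaled FPKM. The study used FDR 0.1 with Cuffdiff, which needs aligned reads. Transcript lengths came from GENCODE M21 (longest transcript) and covered 95.3% of tested genes. Fragments behind a value were derived as (2 × FPKM / (upper bound − FPKM)) squared and are too low for abundant genes, at 0.50–0.59 of the number that FPKM, length and depth give in the abundant class. The fit was tested on simulated data for Moderate IOP against Control. Of 200 genes changed by 1 on the log2 scale among 13043, 76.5% were recovered, with 19 false calls. The changed genes were drawn from the more abundant ones only, so the recovery does not cover low genes. The simulated noise was independent between genes and held no trend with transcript length.

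The 10 members, the other gene lists and the tests were chosen with earlier results of these data known. Named beside the members were pathway genes that passed in at least 1 comparison (at most 5 per list, the largest differences), the 3 most abundant of each list, the 3 genes most like each called member, and leading markers of the cell type lists. From the amacrine list 1 marker is not reported here and was left out of its sums and counts. Alternatives changed the scaling, the pseudocount, the filter, the failed estimates, the groups sharing the spread, a replicate block and the libraries left out. Scaling by total FPKM and centring on genes of similar length were added after seeing the data.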

Additional observations from a re-analysis of the deposited data

Results flagged for a closer look

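*Cartpt* was below Control in every Mild IOP library (log2 difference -0.42) and above Control in every Moderate IOP library (log2 difference 1.11), so the 2 levels of IOP elevation lay on opposite sides of the same Control libraries. The difference between these 2 effects equals that of Moderate against Mild IOP, 1.535 (SE 0.15). It is given as a description, because the gene was chosen with these contrasts known. The Mild IOP difference from Control passed in 0 of the 17 alternatives and was -0.24 without Mild IOP replicate 2. Within each library the ratio of *Cartpt* to *Scg2* was lower in Mild IOP (0.79–1.01) than in Control (1.13–1.30). Its ratio to *Npy* was not lower, at 1.227–1.358 against 1.082–1.235. Those to *Tac1* and to the summed RGC markers overlapped. Relative to genes of similar transcript length the 2 differences from Control were -0.06 and 0.90. The first of them is smaller than its SE of 0.15, but it depends on the bounds of the length class. The class of next longer transcripts had a median of -0.14 for Mild IOP against Control.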

How the results depend on the processing

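Over the 17 alternatives, the *Cartpt* difference was 1.01–1.15 for Moderate IOP against Control and 1.23–1.65 against Mild IOP, given as a description. In each group 1 pool was sequenced, so no value covers variation between animals, and low genes rest on few fragments. The members passing for Mild IOP against Control numbered 0, but 1 with the replicate block (*Cck*) and 0–1 when 1 library was left out (*Tac1* without Mild IOP replicate 3). Leaving out 1 library gave 1 throughout for Moderate IOP against Control and 2–5 for Moderate against Mild IOP, the lowest without Mild IOP replicate 2 or Moderate IOP replicate 1.

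Over all genes, Mild IOP against Control gave 52 calls, 24 without the filter, 11 with the spread of the 2 groups only, 25 with the replicate block and 17 with scaling by total FPKM. Leaving out 1 library gave 15–183, with 183 without Mild IOP replicate 3. The 1 pathway gene became 0 under these 4 settings, and 0–1 when a library was left out. Moderate IOP against Control gave 240 calls, 134 with the spread of the 2 groups only, 135 with the replicate block and 61–287 when a library was left out (61 without Control replicate 1, 86 without Control replicate 2). Its 3 pathway genes became 1 with the replicate block and 0–3 when a library was left out (0 without Control replicate 1). Moderate against Mild IOP gave 1324 calls, 2828 with scaling by total FPKM and 519–1399 when a library was left out, with 519 without Mild IOP replicate 2. Its 7 pathway genes became 14 with scaling by total FPKM and 4–7 when a library was left out. *Scg5* in that comparison turned to -0.051 when centred on genes of similar length. The cause of these changes was not tested.

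With scaling by total FPKM the median difference of all genes was 0.18 for Mild IOP against Control and -0.27 for Moderate against Mild IOP, in place of 0.006 and -0.016. Of the genes called in the latter, 69.3% were higher in Moderate IOP, 52.5% without scaling and 18.9% with scaling by total FPKM. In Moderate IOP against Control this share was 51.7%, 42.0% and 34.3%. Replicate numbers did not pair the libraries: deviations from the group means correlated at 0.012 on average between libraries of the same number (-0.005 to 0.044, 9 pairs) and at -0.006 between others.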

Other observations

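*Chgb*, the granin gene for chromogranin B, read 791, 228 and 222 in the 3 Moderate IOP libraries and 225–297 in the other 6. It was chosen after its values were seen. *Pam*, the enzyme that amidates peptides, averaged 10.4 ± 1.62 in Control, 16.6 ± 0.437 in Mild and 17.4 ± 2.56 in Moderate IOP (SD, n = 3), with every library of both IOP groups above every Control library, as were 7.94% and 9.95% of all genes. Its log2 differences from Control of 0.64 and 0.69 did not pass (limma FDR 0.21 and 0.11). It was likewise chosen after its values were seen.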
